A study of Mus musculus with 24 samples.

Results

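Macrophage marker genes and scavenger receptors were examined in the terminal ileum of mice that had received a macrolide antibiotic early in life. The rule was a list of gene names and used no measured value. Of 10 names, 8 had a row among the 547 genes measured, namely Emr1, Csf1r, Csf1, Cd163, Msr1, Marco, Cd36 and Trem2, and Mrc1 and Cd68 were not analysed here. The study exposed C57BL/6 pups to tylosin, a macrolide, and asked whether 1 course has the lasting effects of repeated courses. PAT1 mice (pulsed antibiotic treatment, 4 male and 3 female) received 1 course through the milk of the treated dam, PAT3 mice (4 male and 6 female) received the same course and 2 more after weaning, and Control mice (4 male and 3 female) drank water without antibiotic. All mice were sampled at week 7. Groups follow the sample labels, whose numbers of PAT1 and PAT3 mice are not those of the study's figure legend, and which mouse accounts for this was not known here. Dams and litters were assigned as a whole, and mice were housed by sex and group, so that the effects of litter, cage and treatment cannot be told apart, and p-values measure only the spread between mice.

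Tissue macrophages of the gut wall are replenished from blood monocytes and take up bacteria and dying cells with little inflammation. Their survival depends on colony stimulating factor 1 (Csf1) acting on its receptor, the tyrosine kinase Csf1r. Emr1, now named Adgre1, encodes the F4/80 antigen by which mouse macrophages are commonly recognised. Scavenger receptors are a mixed set of surface proteins that bind modified lipoproteins, microbial surfaces and cell debris. Msr1 and Marco belong to class A, Cd36 to class B, and Cd163 takes up haemoglobin bound to haptoglobin, whereas Trem2 is a lipid receptor that signals through the adaptor Tyrobp. Cd36 also carries fatty acids into adipocytes, endothelium and absorptive epithelium and is therefore not a macrophage marker by itself.

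Expression was measured with the NanoString nCounter mouse immunology panel, in which each transcript is counted by hybridization of a colour-coded probe pair, and values are log2 counts after normalization between samples. The probe of each gene binds with its own efficiency, so levels are compared between samples and not between genes. Total counts lay between 171671 and 782392 per sample and did not differ between groups beyond the spread between mice (two-sided exact permutation tests of log2 totals, p = 0.150, 0.353 and 0.343, each 0.353 after adjustment over the 3 comparisons). The median log2 level of the panel averaged 6.97 in Control, 6.82 in PAT1 and 6.78 in PAT3, so that centring samples on it raised every log2 fold change against Control. Markers of absorptive epithelium were abundant in every sample, with a summed level of 5 mature enterocyte markers of 14.46 to 16.09 on the log2 scale. Each of the 8 genes was counted in every sample. Counts were not compared with a background level here, so a low count does not by itself show that the transcript was present. Emr1 had 140 to 687 counts and Csf1r 244 to 1071, whereas Marco had 9 to 32 and Trem2 3 to 22. At their median counts in Control, the counting error was 5.04% for Emr1, 21.3% for Marco and 28.9% for Trem2, which limits what can be seen for the 2 last.

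Sequences just upstream of the start site are shown for the 2 genes with the widest separation between the PAT groups, Csf1 and Cd36, and for the 2 whose windows held a searched motif, Marco and Trem2. RefSeq promoter windows of assembly GRCm38.p6 matched 5 of the 8 genes, and the 250 bases before the start were read 5′ to 3′ on the strand of the gene. Capitals mark a match to the PU.1 core GAGGAA, bound by the factor that directs macrophage gene expression, or to the AP-1 site TGANTCA, on either strand. The windows lie at chr3:107760470-107760719, minus strand (Csf1), chr5:17835897-17836146, minus strand (Cd36), chr1:120505025-120505274, minus strand (Marco) and chr17:48346151-48346400, plus strand (Trem2).
Csf1: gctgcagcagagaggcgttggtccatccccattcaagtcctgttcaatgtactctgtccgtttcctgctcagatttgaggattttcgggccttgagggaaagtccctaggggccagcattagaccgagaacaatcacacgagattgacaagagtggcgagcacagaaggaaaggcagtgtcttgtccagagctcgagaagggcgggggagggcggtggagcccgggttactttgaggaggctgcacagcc
Cd36: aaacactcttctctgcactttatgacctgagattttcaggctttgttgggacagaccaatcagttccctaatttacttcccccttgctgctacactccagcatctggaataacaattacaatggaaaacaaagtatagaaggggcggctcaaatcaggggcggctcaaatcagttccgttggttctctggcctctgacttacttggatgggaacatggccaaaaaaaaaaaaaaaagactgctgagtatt
Marco: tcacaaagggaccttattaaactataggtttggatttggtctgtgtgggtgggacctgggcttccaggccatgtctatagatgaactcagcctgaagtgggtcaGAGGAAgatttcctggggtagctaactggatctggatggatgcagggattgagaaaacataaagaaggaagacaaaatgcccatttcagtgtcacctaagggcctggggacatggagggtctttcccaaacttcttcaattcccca
Trem2: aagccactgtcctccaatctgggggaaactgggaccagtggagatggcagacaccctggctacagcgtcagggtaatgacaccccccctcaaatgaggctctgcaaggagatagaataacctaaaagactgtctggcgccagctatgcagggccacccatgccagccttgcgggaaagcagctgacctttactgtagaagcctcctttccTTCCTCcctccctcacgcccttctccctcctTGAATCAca
Marco held the PU.1 core 146 bases before its start, and Trem2 held it on the opposite strand, as TTCCTC, 40 bases before its start, followed by an AP-1 site at 9 bases. Neither motif was found in the windows of Csf1, Cd36 and Cd163, nor was the E-box CACGTG in any of the 5. Of all 32851 windows of this length, 23.3% held the PU.1 core, 6.75% the AP-1 site and 6.02% the E-box. A match is a run of letters and not a measured binding site. The Cd36 window is that of a single start, and the annotated gene extends further upstream.

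**Figure D1:**
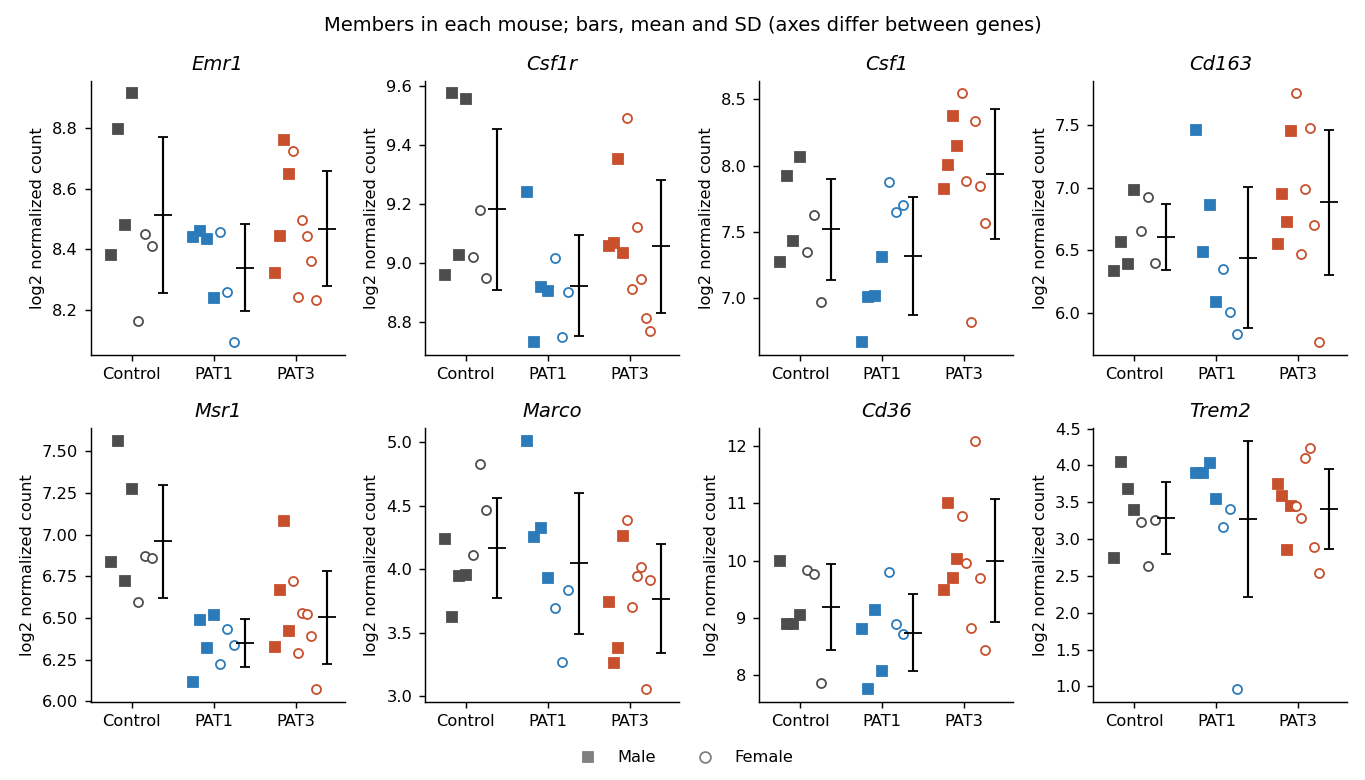
Log2 normalized counts of the 8 genes in each mouse (vertical axes, which differ between panels) by group (horizontal axes), with filled squares for males, open circles for females, and bars for the mean and SD. Msr1 is lower in all 7 PAT1 mice than in any Control mouse, whereas the groups overlap for the other genes.

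Msr1 was the only one of the 8 genes called against Control, and it was lower after either regimen. Called means an adjusted p under 0.05 by limma's moderated test, with Benjamini-Hochberg adjustment over all 547 genes. In PAT1, 1 of 8 genes was called, against 18.5% of all genes (11.2% lower and 7.31% higher). In PAT3 it was 1 of 8, against 31.8% of all genes (17.9% lower and 13.9% higher), so that neither share was above that of the panel. Between PAT3 and PAT1, 0 of 8 were called by limma, against 4.2% of all genes (2.74% lower and 1.46% higher), and 2 (Csf1 and Cd36) had an unadjusted p under 0.05. The share of 4.2% (23 genes) was itself unsteady, since no gene of the panel was called in 12 of 24 fits with 1 mouse left out (PAT1 replicates 1, 2, 4 and 7 and PAT3 replicates 1 to 6, 8 and 9), nor by the methods' test (aov and TukeyHSD, also 0 of 8). At an unadjusted p under 0.05 these limma fits gave 107 to 153 genes of the panel and the methods' test 95. The median log2 fold change of the 8 genes was -0.19 in PAT1, 0.04 in PAT3 and 0.15 for PAT3 against PAT1, beside 0.01, 0.03 and -0.03 over all genes. Fold changes in PAT1 were below 0 for all 8 genes, and in PAT3 for 4 of 8. These contrasts share their Control mice. By the moderated F-test over the 3 groups, Msr1 (adjusted p = 0.00758) and Cd36 (adjusted p = 0.0422) differed, 2 of 8 against 34.6% of all genes.

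**Figure D2:**
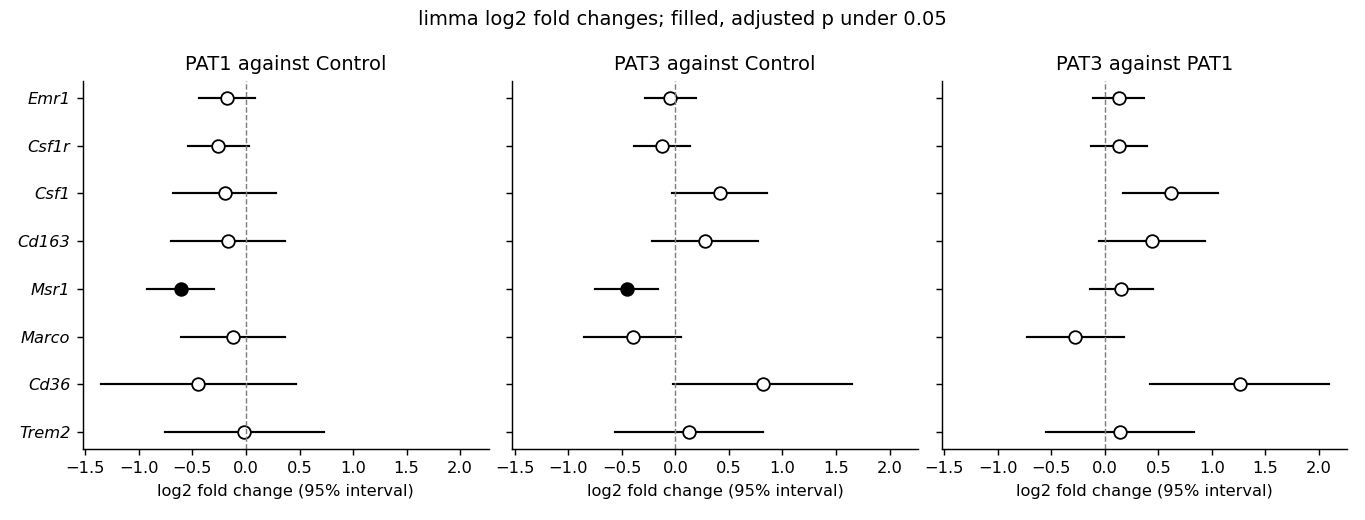
Log2 fold changes (horizontal axes) of the 8 genes in the 3 contrasts, with 95% confidence intervals and filled points for an adjusted p under 0.05. Msr1 lies at -0.61 and -0.46 against Control, and the widest intervals are those of Cd36.

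The general macrophage markers were close in the 3 groups. Emr1 ranged from 8.16 to 8.92 in Control (median 8.45), from 8.09 to 8.46 in PAT1 (median 8.43) and from 8.23 to 8.76 in PAT3 (median 8.44). The group medians lay within a few hundredths of each other, and the ranges overlapped. Means were 8.51 ± 0.26 (SD, n = 7), 8.34 ± 0.14 (SD, n = 7) and 8.47 ± 0.19 (SD, n = 10). Log2 fold changes of Emr1 against Control were -0.17 in PAT1 (95% interval -0.44 to 0.09, adjusted p = 0.387) and -0.05 in PAT3 (-0.29 to 0.20, adjusted p = 0.780). On the linear scale the intervals reached from 0.739 to 1.06 times and from 0.820 to 1.15 times the Control level. In bulk tissue, fewer cells of a type and less RNA per cell cannot be told apart.

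Csf1r, the receptor that macrophages need for growth and survival, ranged from 8.95 to 9.57 in Control (median 9.03), from 8.73 to 9.24 in PAT1 (median 8.91) and from 8.77 to 9.49 in PAT3 (median 9.04). Most PAT1 mice (5 of 7) and 4 of 10 PAT3 mice lay below the lowest Control mouse, while the upper ends of the groups overlapped. Means were 9.18 ± 0.27, 8.92 ± 0.17 and 9.06 ± 0.22. Its log2 fold changes were -0.26 in PAT1 (SE 0.14, 95% interval -0.54 to 0.02, adjusted p = 0.210) and -0.12 in PAT3 (SE 0.13, -0.38 to 0.13, adjusted p = 0.469). By their means the order was Control, PAT3 and PAT1 for both Emr1 and Csf1r, while the median of Csf1r was as high in PAT3 as in Control, and no neighbours in it differed beyond the spread between mice.

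Csf1, the ligand, showed another order, with PAT3 highest and PAT1 lowest. It ranged from 6.97 to 8.07 in Control (median 7.43), from 6.67 to 7.88 in PAT1 (median 7.31) and from 6.82 to 8.55 in PAT3 (median 7.94). Of the 10 PAT3 mice, 9 lay above the mean of either other group and 6 above the highest PAT1 mouse, with 1 mouse (PAT3 replicate 7, at 6.82) near the bottom of the PAT1 range. Means were 7.52 ± 0.38, 7.32 ± 0.44 and 7.93 ± 0.49. The difference between PAT3 and PAT1 was 0.61 (SE 0.22, 95% interval 0.17 to 1.06), or 1.53 times on the linear scale, with an unadjusted p of 0.00864 and an adjusted p of 0.0738 by limma. Against Control the log2 fold changes were 0.41 in PAT3 (adjusted p = 0.141) and -0.20 in PAT1 (adjusted p = 0.602). Without PAT3 replicate 7, PAT3 was called both against Control (0.54, adjusted p = 0.0271) and against PAT1 (0.74, adjusted p = 0.0146). That mouse had the fewest counts of the PAT3 mice (265500). Without it the genes called over the whole panel also rose, from 174 to 211 against Control and from 23 to 102 against PAT1. Samples centred on their median gave Csf1 calls in both contrasts too (0.61, adjusted p = 0.0204, and 0.66, adjusted p = 0.0387), with 230 and 57 genes of the panel called. The methods' test gave an adjusted p of 0.229 for PAT3 against PAT1, and the size factor as a covariate 0.170 (0.37).

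In PAT1 mice the level of Csf1 split by sex. The 4 males lay between 6.67 and 7.31 and the 3 females between 7.65 and 7.88, without overlap, whereas in Control the males (7.27 to 8.07) and females (6.97 to 7.63) overlapped. Marco went the other way in PAT1, with males from 3.93 to 5.01 and females from 3.27 to 3.83. The sexes did not overlap in PAT1 for 3 of the 8 genes (Csf1, Marco and Trem2), against 20.1% of all genes. Sex and depth were partly tied in PAT1, with total counts of 171671 to 631905 in males and 543394 to 782392 in females. The part of depth in the splits by sex was not tested. Counts before scaling overlapped in PAT1 for Marco (11 to 17 in males, 10 to 22 in females) and for Trem2 (6 to 13 and 3 to 11). For these 2 genes the split was thus seen only after scaling of low counts. The difference in Csf1 between PAT3 and PAT1 was 1.09 in males alone (adjusted p = 0.00662) and 0.09 in females alone (adjusted p = 0.907). In this contrast limma called 129 genes of the panel in males and 0 in females (38 at an unadjusted p under 0.05). The PAT3 males had size factors of 1.09 to 1.27, so that treatment and depth are hard to tell apart in males. A test of whether the effect of treatment differed between the sexes gave unadjusted p-values of 0.0272 for Csf1 and 0.0135 for Marco, and neither passed adjustment by limma over all genes (adjusted p = 0.228 and 0.187, against 0.183% of genes called). Females and males, with treatment in the fit, differed in none of the 8 genes (smallest adjusted p 0.475, for Trem2, against 0.366% of genes called), and 0 of 8 had an unadjusted p under 0.05.

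Msr1, scavenger receptor A, was the member with the clearest difference. It ranged from 6.60 to 7.57 in Control (median 6.86), from 6.12 to 6.52 in PAT1 (median 6.34) and from 6.07 to 7.08 in PAT3 (median 6.48). All 7 PAT1 mice lay below all 7 Control mice, a separation found for 6.22% of genes in this contrast, and 7 of 10 PAT3 mice lay below the lowest Control mouse. PAT3 and Control overlapped, as they did not for 9.32% of genes. Means were 6.96 ± 0.34 (SD, n = 7), 6.35 ± 0.14 (SD, n = 7) and 6.50 ± 0.28 (SD, n = 10). The log2 fold change was -0.61 in PAT1 (SE 0.15, adjusted p = 0.00516) and -0.46 in PAT3 (SE 0.14, adjusted p = 0.0155). On the linear scale these are 0.655 times (95% interval 0.526 to 0.815) and 0.729 times (0.596 to 0.892) the Control level. PAT3 and PAT1 did not differ beyond the spread between mice (0.15, 95% interval -0.14 to 0.45, adjusted p = 0.506).

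The size of the fall in Msr1 depended in part on 2 Control mice. Control replicates 2 and 4 had the highest Msr1 of all mice (7.57 and 7.27), the highest Emr1 (8.80 and 8.92) and the highest Csf1r (9.57 and 9.56). They also had the lowest mean of 5 mature enterocyte markers among the Controls, at 12.24 and 12.05, where the other 5 Control mice had 12.61 to 13.33. Low enterocyte markers were also seen in PAT1 replicate 1 (12.18) and PAT3 replicate 5 (11.80), where Msr1 was 6.12 and 6.72. Without Control replicate 2 the fall in PAT3 was not called (-0.35, adjusted p = 0.0518), while that in PAT1 was called with any single mouse left out (highest adjusted p 0.0164). Without both Control mice the fold changes were -0.43 in PAT1 (adjusted p = 0.0514) and -0.27 in PAT3 (adjusted p = 0.143). With the mean of the enterocyte markers as a covariate both were called (-0.51, adjusted p = 0.00806, and -0.38, adjusted p = 0.0240). Of these 5 markers, 2 were themselves called higher and 1 lower in each PAT group. Their mean is thus not a measure of epithelial content alone.

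Whether Msr1 fell beyond the general macrophage markers was examined by scaling each sample to its own Emr1 or Csf1r value. Relative to Emr1 the log2 fold changes of Msr1 were -0.44 in PAT1 (adjusted p = 0.0284) and -0.41 in PAT3 (adjusted p = 0.0147), both called. Relative to Csf1r they were -0.35 (adjusted p = 0.0778) and -0.33 (adjusted p = 0.0567), and neither was called. The direction was the same in each of these fits. After centring of the samples on their median the fall remained called in PAT1 and was not called in PAT3 (-0.26, adjusted p = 0.128).

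**Figure D3:**
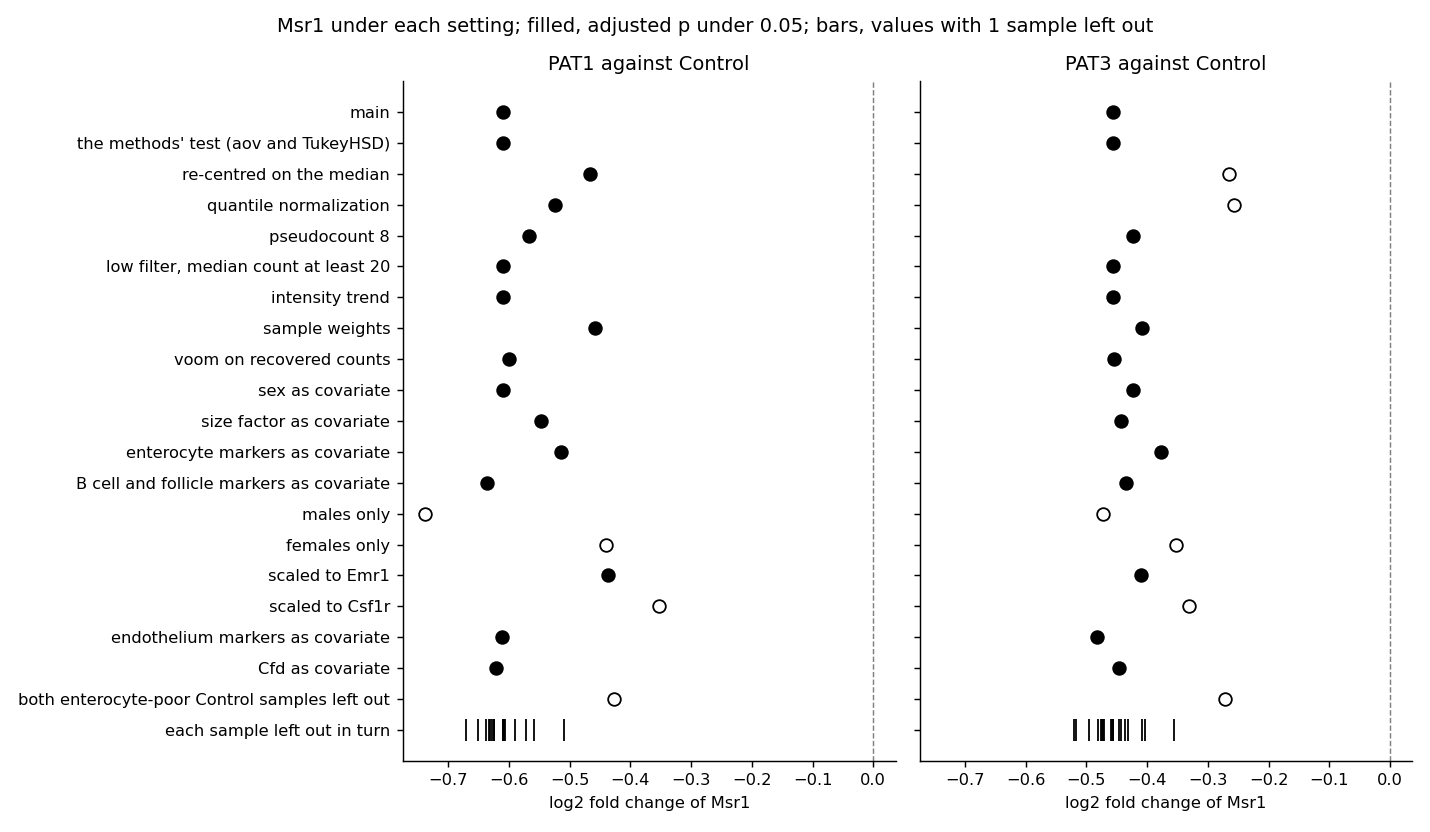
Log2 fold change of Msr1 (horizontal axes) in PAT1 and PAT3 against Control under each setting of the analysis (vertical axis), with filled points for an adjusted p under 0.05 and vertical bars for the values with 1 sample left out. All values lie below 0, and those for PAT3 range from -0.52 to -0.26.

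Marco, the other class A receptor, was close to the lower end of what was counted, with a median count of 22 in Control mice, 13 in PAT1 mice and 14.5 in PAT3 mice. Log2 values ranged from 3.63 to 4.83 in Control (median 4.11), from 3.27 to 5.01 in PAT1 (median 3.93) and from 3.06 to 4.39 in PAT3 (median 3.83). The groups overlapped widely, although 8 of 10 PAT3 mice lay below the Control mean. Its log2 fold changes were -0.12 in PAT1 (95% interval -0.61 to 0.37, adjusted p = 0.779) and -0.40 in PAT3 (-0.85 to 0.05, adjusted p = 0.169). With sample weights, which give less weight to the more variable mice, the value in PAT3 was -0.59 and was called (adjusted p = 0.00745). In that fit 287 genes of the panel were called, against 174 without weights.

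Cd163, found on resident macrophages, ranged from 6.33 to 6.98 in Control (median 6.57), from 5.83 to 7.46 in PAT1 (median 6.36) and from 5.77 to 7.75 in PAT3 (median 6.84). Both PAT groups spread on either side of the Control range, with 4 of 10 PAT3 mice above it and 1 below it, and 1 of 7 PAT1 mice above it and 3 below it. Standard deviations were 0.26 (n = 7), 0.56 (n = 7) and 0.58 (n = 10). Before scaling, the counts of the PAT1 mice lay between 64 and 88. The highest log2 value in PAT1 was in the mouse with the lowest size factor (0.40) and the lowest in that with the highest (1.54). The part of the size factors in this spread was not tested. The mean in PAT3 was 0.28 above that in Control (95% interval -0.22 to 0.77, adjusted p = 0.397) and 0.44 above that in PAT1 (-0.05 to 0.93, adjusted p = 0.231). In PAT1 the log2 fold change against Control was -0.16 (-0.70 to 0.37, adjusted p = 0.715).

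Cd36 varied most in PAT3. It ranged from 7.86 to 10.001 in Control (median 9.05), from 7.76 to 9.80 in PAT1 (median 8.80) and from 8.43 to 12.09 in PAT3 (median 9.83). Of the 10 PAT3 mice, 5 lay above the highest PAT1 mouse and 4 above the highest Control mouse, and the highest, PAT3 replicate 8, had 5121 counts. Means were 9.19 ± 0.75 (SD, n = 7), 8.74 ± 0.68 (SD, n = 7) and 10.0002 ± 1.07 (SD, n = 10). PAT3 exceeded PAT1 by 1.26 on the log2 scale (SE 0.41, 95% interval 0.42 to 2.09), or 2.39 times on the linear scale, with an adjusted p of 0.0576 by limma, just above the threshold. Several settings brought it below the threshold, among them centring on the median (1.30, adjusted p = 0.0412) and the removal of genes with a median count under 20 (1.26, adjusted p = 0.0454). Others raised its adjusted p, to 0.215 by the methods' test, to 0.117 with the size factor and 0.457 with B cell markers as a covariate, and up to 0.185 with 1 mouse left out. The difference was 1.61 in males alone (adjusted p = 0.0130) and 0.82 in females alone (adjusted p = 0.746), with 129 and 0 genes of the panel called by limma. Size factors of males were 0.40 to 1.11 in PAT1 and 1.09 to 1.27 in PAT3, and the part of depth was not tested. Against Control the log2 fold changes were 0.81 in PAT3 (adjusted p = 0.124) and -0.44 in PAT1 (adjusted p = 0.535).

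Trem2 was counted in small numbers, with a median count of 12 in Control mice, 9 in PAT1 mice and 11.5 in PAT3 mice. Its values ranged from 2.63 to 4.04 in Control (median 3.26), from 0.96 to 4.03 in PAT1 (median 3.55) and from 2.54 to 4.23 in PAT3 (median 3.45). The ranges overlapped throughout. Log2 fold changes were -0.01 in PAT1 (95% interval -0.76 to 0.73, adjusted p = 0.991) and 0.13 in PAT3 (-0.56 to 0.81, adjusted p = 0.787). The value in PAT1 rested on replicate 7, at 0.96 from 3 counts, without which it was 0.37 (adjusted p = 0.372).

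To see which of the genes varied together between mice of a group, deviations from the group means were correlated over the 24 samples. Of 28 pairs, 6 had an adjusted p under 0.05 (100000 two-sided permutations within groups, adjusted over the 28 pairs), all positive. The share of all pairs of the panel that would pass was not computed. All genes of a sample also share its size factor, so the count cannot be read as particular to these genes. Emr1 and Csf1r were the closest pair (Pearson r = 0.77, permutation p = 9e-05, adjusted p = 0.00252; Spearman rho = 0.67, permutation p = 0.00124, adjusted p = 0.0162), with r = 0.70 without the 2 mice farthest from the median of Emr1. Msr1 followed Emr1 (r = 0.72, adjusted p = 0.00742; rho = 0.65, adjusted p = 0.0162) and Csf1r (r = 0.64, adjusted p = 0.0197; rho = 0.52, adjusted p = 0.0633). Cd163 went with Emr1 (r = 0.57, adjusted p = 0.0134; rho = 0.65, adjusted p = 0.0143), with Csf1r (r = 0.56, adjusted p = 0.0197; rho = 0.53, adjusted p = 0.0522) and with Marco (r = 0.57, adjusted p = 0.0354; rho = 0.52, adjusted p = 0.0633). Neither Csf1 nor Cd36 was in a pair that passed, and r between them was 0.52 (adjusted p = 0.0628).

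Several pairs did not run the same way in each group, among them pairs with Msr1 and pairs with Csf1. Within Control r between Csf1r and Msr1 was 0.90 and within PAT3 0.80, but within the 7 PAT1 mice it was -0.87. For Emr1 and Msr1 the values were 0.89, 0.83 and -0.37. In the same order of groups they were 0.70, 0.47 and -0.82 for Csf1 and Cd163, and 0.81, 0.48 and -0.48 for Emr1 and Csf1. The differences between groups were not tested. For Msr1, its low range in PAT1 (0.40 on the log2 scale) and the counting error of 11.5% at its median count of 75 stand beside them. PAT1 replicate 1, with the lowest size factor, had the lowest Msr1 (6.12, from 28 counts) and the highest Csf1r (9.24) of the PAT1 mice. By contrast, r between Emr1 and Cd163 was positive in each group, at 0.41, 0.73 and 0.69 in Control, PAT1 and PAT3. So was r between Emr1 and Csf1r, at 0.89, 0.28 and 0.84, though low in PAT1.

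**Figure D4:**
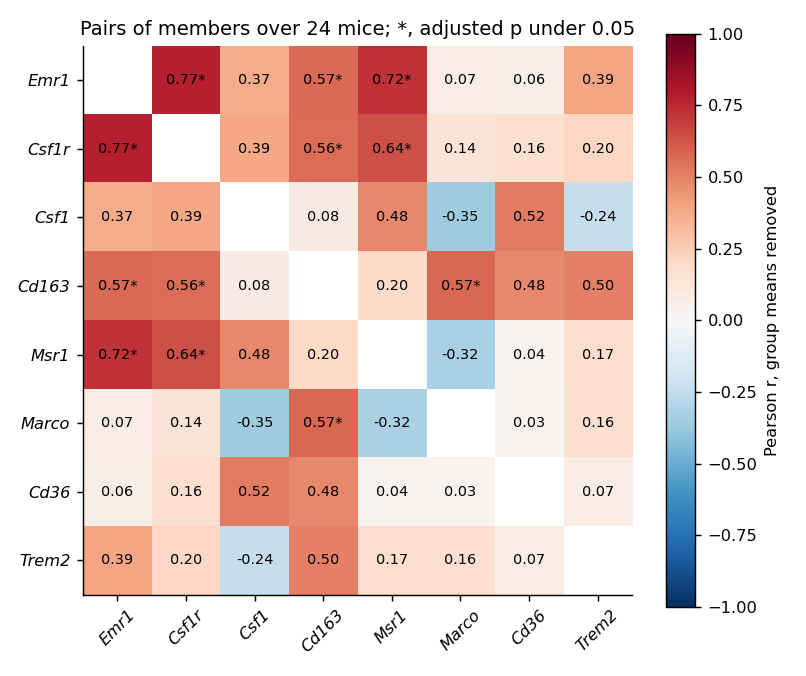
Pearson r between each pair of the 8 genes over 24 mice after removal of group means (colour scale from -1 to 1), with an asterisk for an adjusted p under 0.05. Emr1, Csf1r, Msr1 and Cd163 form 5 of the 6 marked pairs, and Csf1, Cd36 and Trem2 are in none.

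The genes of the panel most like each member were then listed by the same r over 24 mice, as a description. Closest to Emr1 were the Fc receptor gene Fcgr3 (0.81), the complement gene C1qb (0.79) and Csf1r. Csf1r was nearest to the ectonucleotidase gene Entpd1 (0.80), the integrin gene Itga4 (0.78) and Emr1, and Msr1 to Emr1, Lilrb4 (0.70) and C1qb (0.68). Cd163 was nearest to the chemerin receptor gene Cmklr1 (0.86), Tlr8 (0.83) and the complement inhibitor gene Serping1 (0.80). For Marco the nearest were Eomes (0.75), Ccl26 (0.59) and Il19 (0.59), and for Trem2 Il12b (0.76), Prf1 (0.64) and Cd14 (0.62), all at low counts of the member.

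Csf1 and Cd36 had nearest genes that do not mark macrophages. Csf1 was closest to the transcription factor gene Zeb1 (r = 0.93), the endothelial adhesion gene Pecam1 (0.92) and Tcf4 (0.90), and Cd36 was closest to Cd1d1 (0.91) and to Cfd (0.85), which encodes the adipocyte product adipsin. Cfd spanned 4.43 to 14.58 over the mice, and its highest value was in PAT3 replicate 8, which also had the highest Cd36. The mean of 5 endothelium markers went with Cd36 (r = 0.81, rho = 0.76, both permutation tests, adjusted p = 0.000480 and 0.00168 over 48 relations with marker lists) and with Csf1 (r = 0.73, rho = 0.63, adjusted p = 0.00416 and 0.0298). Without the 2 mice farthest from the median of the markers r was 0.73 and 0.59.

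Among those 5 markers 1 was called. Cd34 was higher in PAT3 than in Control (0.64, adjusted p = 0.0126) and than in PAT1 (0.73, adjusted p = 0.0401), and the other 4 were not called. This was 1 of 5 against 31.8% and 4.2% of all genes, and in PAT1 against Control 0 of 5 against 18.5%. The summed level of the 5 markers ranged from 9.79 to 10.56 in Control, from 9.60 to 10.67 in PAT1 and from 9.53 to 11.42 in PAT3. With their mean as a covariate, the difference between PAT3 and PAT1 was 0.45 for Cd36 (adjusted p = 0.626) and 0.25 for Csf1 (adjusted p = 0.669), and that between PAT3 and Control was -0.04 and 0.03 (adjusted p = 0.928 for both). With Cfd as a covariate, PAT3 and PAT1 differed by 0.54 for Cd36 (adjusted p = 0.273) and by 0.49 for Csf1 (adjusted p = 0.273), and PAT3 and Control by 0.48 (adjusted p = 0.121) and 0.36 (adjusted p = 0.213). With either covariate limma called 0 genes of the panel between PAT3 and PAT1, where 49 (endothelium markers) and 90 (Cfd) had an unadjusted p under 0.05. Both covariates were chosen after seeing these data. Cfd is among the genes most like Cd36, and Pecam1, 1 of the 5 endothelium markers, is among those most like Csf1. Adjusting for such genes can shrink the differences of Cd36 and Csf1 by itself, so the source of these differences was not tested. Msr1 stayed called with either covariate (endothelium markers -0.61 and -0.48, Cfd -0.62 and -0.45 in PAT1 and PAT3).

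Mature enterocyte markers ran against the general macrophage markers. Their mean correlated with Csf1r (r = -0.84, rho = -0.77, adjusted permutation p = 0.000480 and 0.00168), Emr1 (r = -0.65, rho = -0.61, adjusted p = 0.00972 and 0.0418) and Cd163 (r = -0.62, rho = -0.56, adjusted p = 0.0173 and 0.0429). Without the 2 mice farthest from the median of the markers, r was -0.78, -0.60 and -0.52. For Msr1 r was -0.49 (rho = -0.57, adjusted p = 0.118 and 0.0542). The mean of 7 T cell markers also ran against Emr1 (r = -0.48, rho = -0.54, adjusted permutation p = 0.0781 and 0.0469). With Cd163 (r = -0.56, rho = -0.44, adjusted p = 0.0896 and 0.186) and Csf1r (r = -0.38, rho = -0.45, adjusted p = 0.227 and 0.123) it did not pass. All genes of a sample share its size factor, and the part of tissue composition in these relations was not tested.

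**Figure D5:**
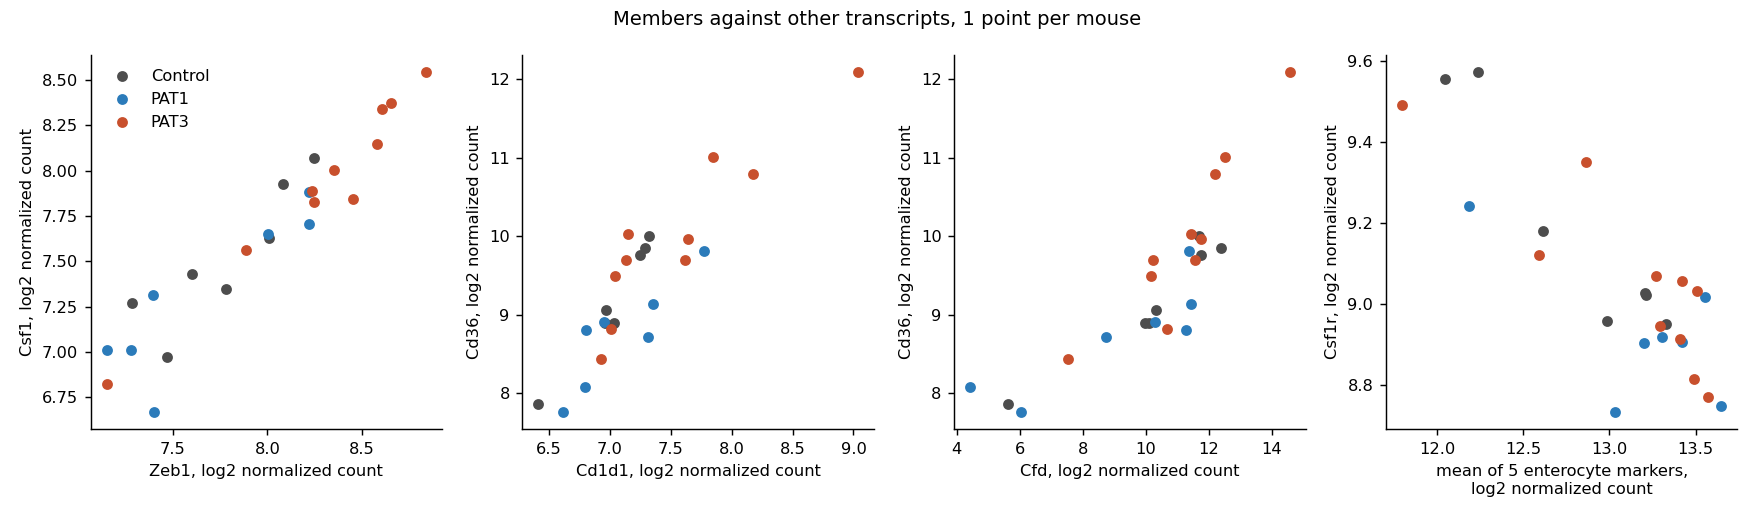
Csf1 against Zeb1, Cd36 against Cd1d1 and against Cfd, and Csf1r against the mean of 5 mature enterocyte markers, all as log2 normalized counts, with 1 point per mouse coloured by group. The first 3 panels rise from lower left to upper right, and in the last Csf1r is highest in the mice with the lowest enterocyte markers.

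Other genes of the same pathways were compared by lists, to be read beside the shares over all genes. Of all genes, 11.2% were called lower and 7.31% higher in PAT1, and 17.9% lower and 13.9% higher in PAT3. Between PAT3 and PAT1, 2.74% were lower and 1.46% higher. Of 11 colony stimulating factor genes and myeloid transcription factors, Csf1 and Csf1r included, 1 was lower in PAT1 and 3 in PAT3, with medians of -0.21 and -0.12. These were Irf8, which directs monocyte and dendritic cell development (-0.52, adjusted p = 0.00489, and -0.53, adjusted p = 0.00154), and in PAT3 also Irf4 (-0.93, adjusted p = 0.00275) and Csf2rb, the common receptor subunit for granulocyte-macrophage colony stimulating factor (-0.45, adjusted p = 0.0435). Among genes that signal downstream of Csf1r, the feedback inhibitor gene Socs3 fell in both groups (-1.31, adjusted p = 0.000203, and -1.54, adjusted p = 1.65e-06), Socs1 fell in PAT3 (-0.84, adjusted p = 0.000877), and the phosphatase gene Ptpn6 was higher in PAT1 (0.49, adjusted p = 0.0120). Socs3 and Socs1 also serve interferon and interleukin receptors. Between PAT3 and PAT1 none of the colony stimulating factor list was called by limma, nor were Socs3, Socs1 and Ptpn6.

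Among 20 surface and effector genes of mononuclear phagocytes, Itgam alone was called, and it was lower in PAT1 (-0.92, adjusted p = 0.000865) and in PAT3 (-0.68, adjusted p = 0.00353). This was 1 of 20 in each contrast, against 18.5% and 31.8% of all genes. Itgam encodes the integrin CD11b of macrophages, monocytes and neutrophils. The list had medians of -0.08 and -0.15, and none of its genes was called between PAT3 and PAT1. Of 10 receptors and partners that work with scavenger receptors, 3 were lower in PAT1, and 2 were lower and 2 higher in PAT3, with medians of -0.04 and -0.07. Of all genes, 11.2% were lower in PAT1, and 17.9% were lower and 13.9% higher in PAT3. The bacterial lipoprotein receptors Tlr2 (-1.18, adjusted p = 0.000355, and -1.004, adjusted p = 0.000334) and Tlr1 (-0.86, adjusted p = 0.000558, and -0.68, adjusted p = 0.00154) fell in both groups. Tlr4, the lipopolysaccharide receptor, was lower in PAT1 (-0.59, adjusted p = 0.00496), was not called in PAT3 (-0.11, adjusted p = 0.550), and was higher in PAT3 than in PAT1 (0.48, adjusted p = 0.0401), the 1 call of this list in that contrast. The tetraspanin genes Cd9 (0.52, adjusted p = 0.00345) and Cd81 (0.30, adjusted p = 0.0227) were higher in PAT3.

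Of 9 genes of alternative macrophage activation, 1 was lower in PAT1, 1 was lower and 1 higher in PAT3, and none was called between PAT3 and PAT1, with medians near 0 against Control. These counts stand beside 18.5%, 31.8% and 4.2% of all genes called in the 3 contrasts. The chemokine gene Ccl22 was lower in both (-0.997, adjusted p = 0.00433, and -1.13, adjusted p = 0.000385), and Stat6, which transmits interleukin 4 signals, was higher in PAT3 (0.43, adjusted p = 0.0197).

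Markers of other cell types in the tissue were given by list, beside 18.5% of all genes called in PAT1, 31.8% in PAT3 and 4.2% between PAT3 and PAT1. T cell markers were lower for 2 of 7 genes in PAT1 and 6 of 7 in PAT3, and for 3 of 7 in PAT3 against PAT1, with a summed level of 9.49 to 9.85 in Control, 8.85 to 9.70 in PAT1 and 8.21 to 9.09 in PAT3. Enterocyte markers had 2 genes higher and 1 lower in each PAT group and none called between them. Among 11 B cell and follicle markers only Cd79b was called, lower in PAT3 than in Control and in PAT1, and the summed level in PAT1 ranged from 9.70 to 12.62. Neutrophil markers had 1 of 6 genes lower in PAT3 (S100a9), with a summed level of 6.03 to 6.92 in Control and 5.30 to 6.75 in PAT3, and dendritic cell markers had 1 of 5 lower in each PAT group (Irf8). Mast cell markers had 1 of 2 higher in PAT3 (Kit). The part of these cells in the values of the 8 genes was not tested beyond the covariates above.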

How the data were processed

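RNA of the terminal ileum of 24 mice was hybridized to the nCounter GX mouse immunology panel. Per the labels it was extracted with TRIzol and an RNeasy column, whereas the methods name another Qiagen kit. The authors normalized the counts with DESeq2 and deposited log2 values for 547 genes. Each value was a whole number of counts divided by 1 factor per sample (100% whole within 0.01 counts), from which counts were recovered. Groups came from the sample labels, and replicate numbers follow sample order. Of 547 symbols, 531 were current in RefSeq, 14 older and 2 unmatched, and Emr1 is the older symbol of Adgre1. No pair of samples agreed within sampling noise (276 pairs, smallest chi-square per degree of freedom 3.98).

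The log2 values were fitted with limma 3.58.1 in R 4.3.3, in 1 model of 24 samples without covariates, tested on simulated data beforehand. P-values were adjusted by Benjamini-Hochberg over 547 genes in each contrast. Correlations used Python 3.11.15 and SciPy 1.17.1. Alternatives covered scaling, pseudocount (8), a low filter (median count of 20), variance models, the methods' test (aov and TukeyHSD), covariates, single sexes and each sample left out. The fits scaled to Emr1 or Csf1r, those with endothelium markers or Cfd as covariates, the one without 2 Control mice, and the correlations with marker lists were chosen after seeing the data. Members were named by rule, with the 3 most similar genes of each and the called genes of each list, up to 6 per contrast, and some of these are not reported here. The members and lists were chosen with earlier results of these data known. The counting error of a gene is the reciprocal of the square root of its median count, and it does not cover the spread between mice.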

Additional observations from a re-analysis of the deposited data

Results flagged for a closer look

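Trem2 in PAT1 replicate 7 lay apart from the other PAT1 mice, at 0.96 on the log2 scale from 3 counts, where the nearest mouse had 3.17. The gap was 0.718 of the range of the 7 mice, beyond the critical value of Dixon's test. Under the normal model of that test, chance gives a gap beyond the critical value in about 1 of 20 groups, and 1 of 24 groups tested showed one. Whether that model holds for log2 values of such low counts was not tested. Without this mouse the log2 fold change of Trem2 in PAT1 moved from -0.01 to 0.37 (limma, adjusted p = 0.372).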

How the results depend on the processing

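The number of members called against Control was 1 in each PAT group, both times Msr1. In PAT1 it was 0 in males only, in females only, after scaling to Csf1r and without both enterocyte-poor Control mice. In PAT3 it was 0 under these 4 and under quantile normalization, 4 with sample weights and 2 with the size factor as a covariate. After centring on the median the 1 gene called in PAT3 was Csf1 in place of Msr1. Between PAT3 and PAT1 it was 2 after centring on the median, with sample weights and in males only, and 1 with the low filter, an intensity trend and voom on recovered counts. Members that differed among the 3 groups numbered 2, and 4 with sample weights, 3 after centring, after quantile normalization, with the low filter, an intensity trend and voom, 1 with the methods' test, with sex, B cell markers, endothelium markers or Cfd as a covariate, after scaling to Emr1 and without both Control mice, and 0 in females only and after scaling to Csf1r. Pairs of members past the threshold numbered 6, and 3 by Spearman's rho and 8 after centring. With single samples left out, the counts ranged from 1 to 1 in PAT1, 0 to 2 in PAT3, 0 to 2 for PAT3 against PAT1 and 1 to 3 among the groups. The causes were not tested, except that single sexes have fewer mice. No called value changed sign. Of 1020 refitted values of single genes, 987 kept their side of the threshold. Genes called over the whole panel moved too, for PAT3 against PAT1 from 23 to 57 after centring, to 129 in males and to 0 with the methods' test, with the size factor, B cell markers, endothelium markers or Cfd as a covariate, and in females, and from 0 to 102 with single samples left out. For PAT1 against Control they moved from 101 to 57 in males and 23 in females, and for PAT3 against Control from 174 to 57 in females, 108 with endothelium markers as a covariate and 287 with sample weights. No paired analysis was possible because replicate numbers follow sample order and pair no animals. Low counts limit Marco and Trem2.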
